A study of Mus musculus with 2 samples.

Results

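The Clcn5 intronic cluster is a row of 5 microRNA hairpins, Mir532, Mir188, Mir362, Mir501 and Mir500, that lie inside the X-linked gene Clcn5. They were found by symbol, after the gene identifiers of the count tables had been matched to GENCODE on GRCm38 (the assembly also called mm10), and they are 5 of the 1973 genes counted. The series holds microRNA libraries from the midbrain of newborn B6NCrl mice, an inbred black strain. The sample labels name no mutation or treatment. Pup 3 and pup 1 each gave a single midbrain on postnatal day 0 and 1 library of RNAs under 30 bases. They form 1 group of 2 animals, so there is no second tissue, age or condition. The questions are how many reads each hairpin had and how closely the pups matched. The labels name 2 different pups under 1 donor identifier.

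A microRNA hairpin is cut in the nucleus and again in the cytoplasm, and either arm of it, called 5p or 3p, can be loaded into an Argonaute protein. Bases 2 to 8 of the loaded arm, the seed, pair with messenger RNAs that are then repressed. Hairpins in an intron can be made from the transcript of their host gene, and hairpins in a row can come from 1 primary transcript while the mature products still reach different levels. Clcn5 encodes ClC-5, a chloride/proton exchanger of endosomes that is best known from the proximal tubule of the kidney and from Dent disease. In rat hippocampal neurons, miR-188 is known to act on neuropilin-2 and miR-501-3p on the glutamate receptor subunit GluA1.

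The mature arms are shown first because the members fall into related groups that matter for how reads were assigned. RefSeq (build GRCm38.p6) matched all 5 hairpins and gave 9 mature arms, written here 5′ to 3′ with the seed in capitals. miR-532-5p is not shown, and what follows on arms and seeds covers these 9.
mmu-miR-532-3p: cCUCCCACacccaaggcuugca
mmu-miR-188-5p: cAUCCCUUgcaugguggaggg
mmu-miR-188-3p: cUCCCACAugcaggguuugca
mmu-miR-362-5p: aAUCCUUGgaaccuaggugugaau
mmu-miR-362-3p: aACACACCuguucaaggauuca
mmu-miR-501-5p: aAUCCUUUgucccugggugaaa
mmu-miR-501-3p: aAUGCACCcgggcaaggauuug
mmu-miR-500-5p: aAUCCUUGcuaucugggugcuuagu
mmu-miR-500-3p: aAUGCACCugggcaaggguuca

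The 9 arms carried 7 different seeds. miR-362-5p and miR-500-5p shared AUCCUUG, and miR-501-3p and miR-500-3p shared AUGCACC. The seed of miR-501-5p, AUCCUUU, began with the same bases as AUCCUUG. The 3p arms of Mir532 and Mir188 had 17 identical bases of 21 compared when they were set 1 base apart, so that their seeds, CUCCCAC and UCCCACA, were the same stretch shifted by 1 position. By sequence the cluster therefore held a Mir532 and Mir188 pair and a Mir362, Mir501 and Mir500 group.

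The closest relatives were Mir501 and Mir500, whose hairpins are shown with the mature arms in capitals.
Mir501: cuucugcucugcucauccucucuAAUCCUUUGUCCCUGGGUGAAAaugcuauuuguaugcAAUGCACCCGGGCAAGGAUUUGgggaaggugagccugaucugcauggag
Mir500: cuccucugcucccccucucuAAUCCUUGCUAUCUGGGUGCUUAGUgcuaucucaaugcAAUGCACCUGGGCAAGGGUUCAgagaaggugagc

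Their 3p arms matched at 18 of 22 bases. The 4 differences, counted from 1 at the 5′ end with the base of miR-500-3p first, were U9C, G18A, C21U and A22G. The longest stretch the pair of hairpins had in common was 14 bases, and no other pair of members shared a longer one. By the 5p arm, Mir501 matched Mir362 at 16 of 22 bases and Mir500 at 15 of 22. Against 2197 other microRNA hairpins of GENCODE M21, the longest run shared with a member was 11 or 12 bases, and none of the 9 mature arms was found whole in another hairpin. Reads that mapped to several places, 39.8% of all reads in pup 3 and 38.7% in pup 1, were counted in no gene. Copies elsewhere in the genome were not searched, and a short read from the run common to Mir501 and Mir500 could fit both.

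All 5 hairpins lie on the minus strand of chromosome X on GRCm38, so the order of transcription runs from high to low coordinates. Mir532 (ENSMUSG00000070139.1) comes first, from 7248402 to 7248497, and Mir188 (ENSMUSG00000065398.1) follows after 345 bases, from 7247989 to 7248056. After a gap of 5942 bases comes Mir362 (ENSMUSG00000070100.1), from 7241982 to 7242046. Mir501 (ENSMUSG00000076251.1) lies 630 bases further on, from 7241243 to 7241351, and Mir500 (ENSMUSG00000070108.2) another 3468 bases on, from 7237683 to 7237774. The row spans 10815 bases.

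Clcn5 extends from 7153810 to 7319358 on the same strand, and its 5′ end lies 70861 bases before Mir532. Of its 5 annotated transcripts, 3 hold the whole row in a single intron of 103648 bases, which is intron 3 in ENSMUST00000115746.7 and ENSMUST00000132126.1 and intron 2 in ENSMUST00000128319.1. No member touched an exon. The other 2 transcripts begin downstream of the row and span none of it. GENCODE M21 lists no further microRNA gene inside Clcn5 on either strand. The level of Clcn5 messenger RNA was not analysed here.

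Levels are given as CPM, counts on the gene's own strand scaled to 1000000 over all microRNA genes. Those counts came to 3195277 in pup 3 and 2337113 in pup 1. The cluster took 13368 counts in pup 3 and 8933 in pup 1. That was 0.418% of the own-strand counts in pup 3 (exact Clopper-Pearson 95% interval 0.411 to 0.426) and 0.382% in pup 1 (0.374 to 0.390), or 4003 ± 256 CPM (SD, n = 2). The libraries are from whole tissue, so fewer expressing cells and less RNA per cell cannot be told apart. All intervals here were computed from the counts alone and cover counting error only, not the spread between animals. Because reads and not molecules were counted, they may be too narrow even for that error. Whether the libraries captured each sequence equally was not tested, so levels of different hairpins compare reads and not molecules. A bias shared by both libraries would not show between the pups. All 5 members were detected (10 or more counts in both libraries), against 18.2% of all genes. None had a read on its opposite strand in either library.

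Mir532, the first hairpin of the row, also had the highest level. It had 1607 CPM in pup 3, against 1584 CPM in pup 1, or 1596 ± 15.8 CPM (SD, n = 2), from 5134 counts in pup 3 and 3703 in pup 1. The pups lay closest together here of the 5 members, with an SD of 0.989% of the mean.

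Mir188, its near neighbour and closest relative by the 3p arm, had 1478 CPM in pup 3, against 1241 CPM in pup 1, or 1360 ± 168 CPM. Both values were below both values of Mir532. The SD was 12.4% of the mean, the widest of the row.

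Mir362, the shortest hairpin, was the lowest. It had 119 CPM in pup 3, against 100.1 CPM in pup 1, or 109 ± 13.1 CPM, from 379 counts in pup 3 and 234 in pup 1. It lies between much higher neighbours on both sides, since Mir501, 630 bases away, had 576 CPM in pup 3, against 555 CPM in pup 1, or 566 ± 15.5 CPM. Mir500, the last hairpin, had 403 CPM in pup 3, against 342 CPM in pup 1, or 373 ± 43.2 CPM. The level therefore did not fall steadily along the row: it was high over the first pair, lowest at Mir362, and intermediate at the last pair.

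**Figure D1:**
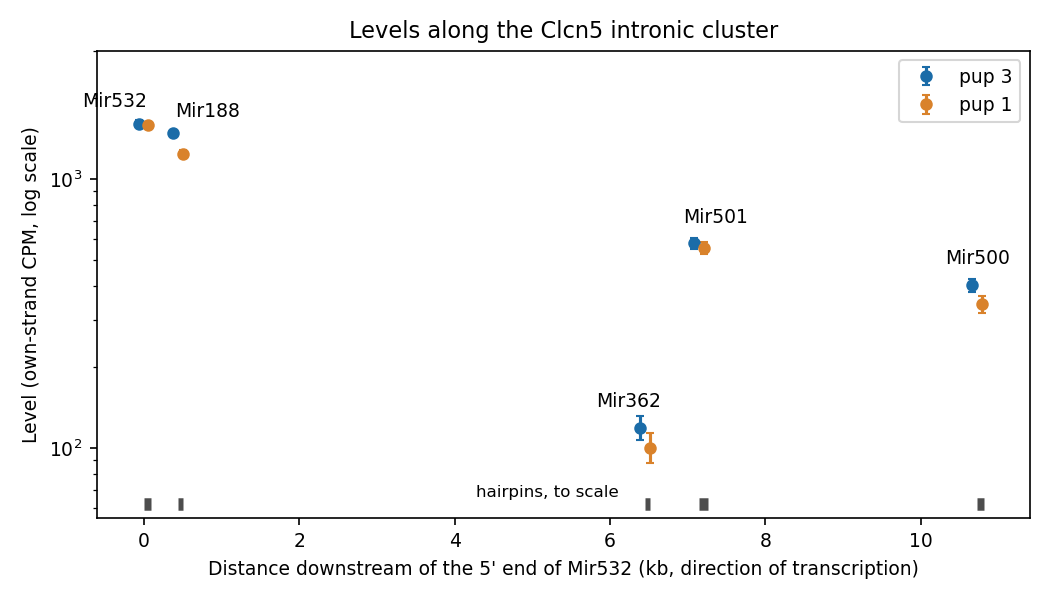
Level of each hairpin (own-strand CPM, log axis) against the distance of its 5′ end from that of Mir532 in kb, in the direction of transcription. Blue points are pup 3 and orange points pup 1, drawn slightly apart; bars are exact 95% counting intervals, and grey blocks show the hairpins to scale. Mir532 and Mir188 lie at 1241 to 1607 CPM, and Mir362 at 100.1 to 119 CPM.

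In falling order the members stood as Mir532, Mir188, Mir501, Mir500 and Mir362, the same in both pups, and no neighbours in this order had ranges that overlapped between the pups. The narrowest step was from Mir532 to Mir188. Within a library, Mir532 had 1.09 times the counts of Mir188 in pup 3 (95% counting interval 1.04 to 1.13) and 1.28 times in pup 1 (1.22 to 1.34). Those intervals do not overlap, so the size of this step differed between the pups by more than they cover. As stated above, they may be too narrow for the full counting error.

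The next step, from Mir188 to Mir501, was 2.56-fold in pup 3 (2.43 to 2.71) and 2.24-fold in pup 1 (2.10 to 2.39), again without overlap of the intervals. Mir500 is the closest relative of Mir501 by the 3p arm. Mir501 stood above it by 1.43-fold in pup 3 (1.33 to 1.54) and 1.62-fold in pup 1 (1.48 to 1.77). Mir500 had 3.40 times the counts of Mir362 in pup 3 (3.03 to 3.82) and 3.42 times in pup 1 (2.95 to 3.97), the step that changed least. From the top to the bottom of the order the mean levels differed 14.6-fold.

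The libraries hold RNAs under 30 bases, shorter than a whole hairpin, so the counts need not grow with hairpin length. Which part of a hairpin the reads came from was not examined. Divided by length, the first 2 members change places. Mir188, annotated with 68 bases, had 1999 CPM per 100 bases and Mir532, with 96 bases, had 1662 CPM per 100 bases. Mir501 had 519, Mir500 405 and Mir362 168 CPM per 100 bases, which left their order as it was. The tables give 1 count per hairpin, so the 5p and 3p arms could not be told apart.

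As a share of the cluster, Mir532 and Mir188 together made up 73.7% of the counts in pup 3 and 73.9% in pup 1. The division between them differed. Mir532 held 38.4% in pup 3 (95% interval 37.6 to 39.2), against 41.5% in pup 1 (40.4 to 42.5). Mir188 held 35.3% in pup 3 (34.5 to 36.2), against 32.5% in pup 1 (31.5 to 33.4). Mir501 held 13.8% in pup 3 and 14.5% in pup 1, and Mir500 9.64% in pup 3 and 8.96% in pup 1. Mir362 held 2.84% in pup 3 and 2.62% in pup 1. The intervals of these 3 members overlapped between the pups.

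**Figure D2:**
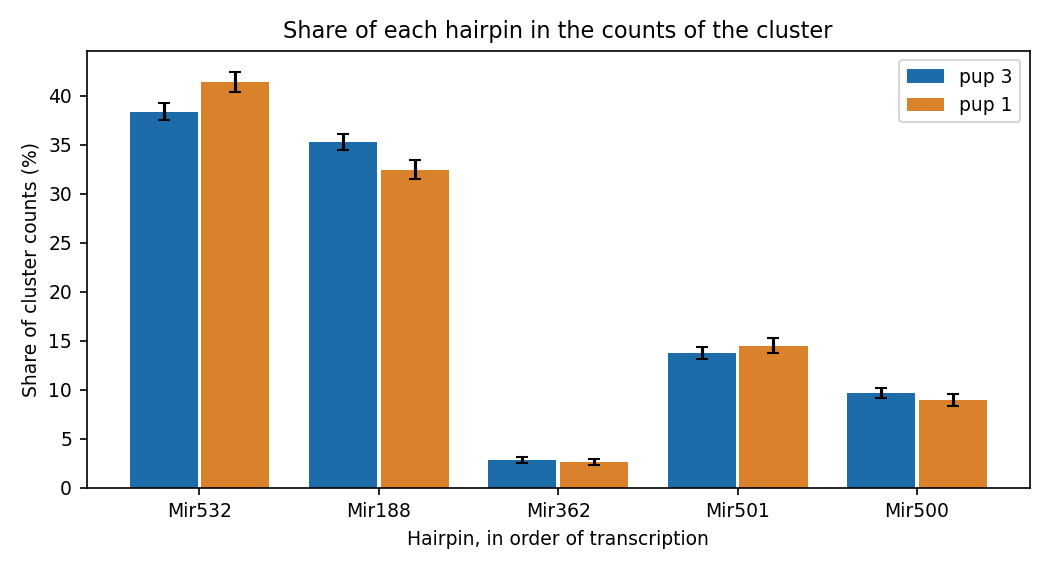
Share of the cluster's own-strand counts held by each hairpin (percent), in order of transcription, in pup 3 (blue) and pup 1 (orange). Bars carry exact 95% binomial intervals; Mir532 holds 38.4% in pup 3 and 41.5% in pup 1, and Mir362 under 3% in both.

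The predicted folds were in another order than the levels. RNAfold gave minimum free energies of -33.2 kcal/mol for Mir532, -28.8 for Mir188, -28.5 for Mir362, -46.9 for Mir501 and -41.9 for Mir500. Per base the member with the highest level, Mir532, had the weakest fold at -0.346 kcal/mol, and Mir500 the strongest at -0.455 kcal/mol. GC content ran between 46.2% in Mir362 and 55.9% in Mir188. With 5 hairpins of different annotated length these values are a description only.

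Among all 1973 genes, Mir532 had rank 85 and Mir188 rank 89 by mean level. Mir501 had rank 129, Mir500 rank 158 and Mir362 rank 218. The median over the members was 566 CPM, against 225 CPM over the 359 detected genes. These ranks and medians leave out reads that mapped to several places, so hairpins with copies elsewhere can stand too low. Next to Mir532 in level stood Mir341 at 1672 ± 204 CPM and Mir467e at 1606 ± 147 CPM above it, and Mir3071 at 1543 ± 132 CPM and Mir134 at 1480 ± 134 CPM below it. Each of these 4 hairpins overlapped with Mir532 within 1 SD. By the ranges over the pups, as used for the members, Mir134 (1385 to 1574 CPM) lay below Mir532 (1584 to 1607 CPM). The others overlapped with Mir532 by that rule too.

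**Figure D3:**
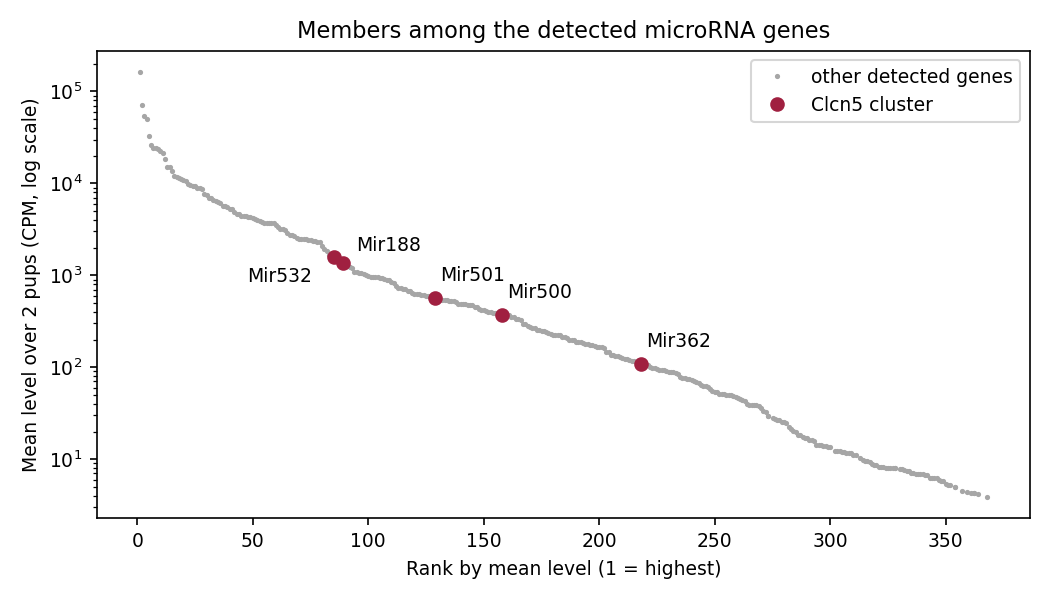
Mean level over the 2 pups (CPM, log axis) of each detected gene against its rank, with the 5 members in red and the other genes in grey. Mir532 and Mir188 sit at ranks 85 and 89, and Mir362 at rank 218.

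The table has 120 genes on the X chromosome, of which 41 were detected. Without the members, 36 of 115 were detected, or 31.3%, with a median of 178 CPM, and 58 had no count in either library. The cluster held 12.4% of all X-linked counts in pup 3 and 12.1% in pup 1. The 5 X-linked hairpins above Mir532, named after their values were seen, were Mir322, Mir652, Mir98, Mir361 and Mirlet7f-2.

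Of the 14 X-linked clusters of at least 2 hairpins on 1 strand within 10 kb, the Clcn5 cluster was the third by summed level, with 4184 CPM in pup 3, against 3822 CPM in pup 1. The Mir322 cluster, known for its part in cell cycle exit, had 8074 CPM in pup 3, against 7315 CPM in pup 1. Mir98 with Mirlet7f-2, a let-7 family pair, had 6578 CPM in pup 3, against 6649 CPM in pup 1. Below the Clcn5 cluster came the Mir221 pair with 1143 CPM in pup 3, against 1064 CPM in pup 1, and the Mir374b pair with 842 CPM in pup 3, against 725 CPM in pup 1. The Clcn5 cluster did not overlap with its neighbours in this order over the pups. Reads that mapped to several places are missing from these sums, so the order holds only for the counts used here.

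The remaining X-linked clusters were lower. The highest hairpin was Mir363 at 213 ± 3.31 CPM in its cluster of 6, Mir1264 at 137 ± 7.95 CPM in the Htr2c cluster, and Mir224 at 43.5 ± 19.1 CPM. The Mir547 pair summed to 7.20 CPM in pup 3, against 10.7 CPM in pup 1. No hairpin was detected in the other 5 clusters, led by Mir741, Mir5132, Mir767, Gm27910 and Mir465c-1. Several hairpins of these clusters have copies elsewhere, which leaves their counts uncertain.

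**Figure D4:**
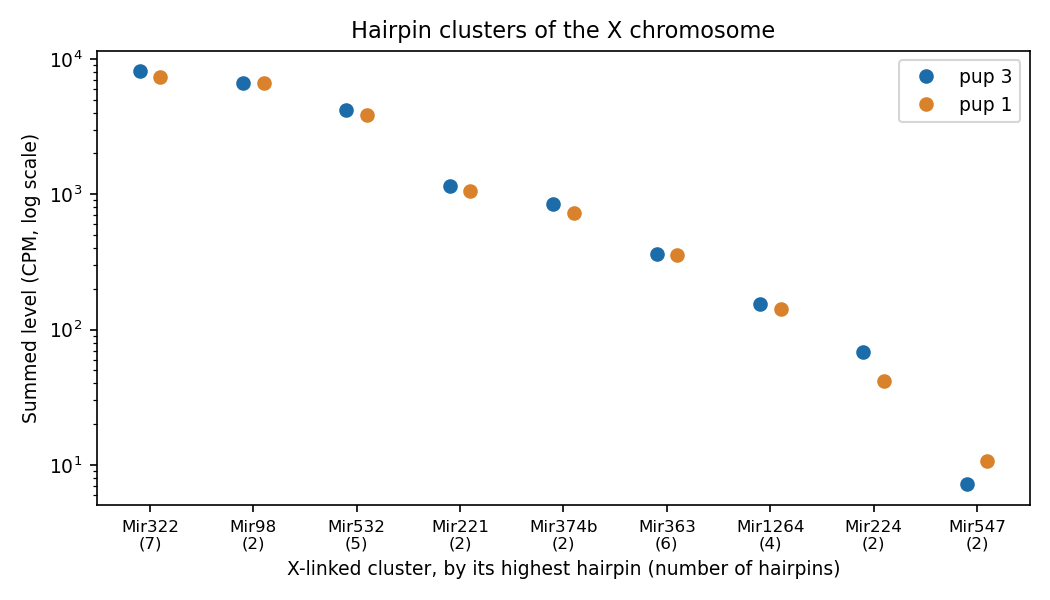
Summed level (CPM, log axis) of the X-linked clusters with a detected hairpin, in pup 3 (blue) and pup 1 (orange), each named by its highest hairpin with its number of hairpins. The Clcn5 cluster, named Mir532, is the third, at 4184 CPM in pup 3, against 3822 CPM in pup 1.

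The spread of levels along the row was set beside that of other clusters. Of 25 clusters of at least 3 hairpins anywhere in the genome, every hairpin was detected in 5, the Clcn5 cluster among them. Ratios are given for these 5 only. This leaves out clusters with a very low member, such as the Mir322 cluster (highest 6629 CPM, lowest 3.06 CPM). The highest mean was 14.6 times the lowest in the Clcn5 cluster. The ratio was 2.58 in the Mir182 cluster of sensory cells, 16.9 in the Mir106b cluster, 63.3 in the Mir23a cluster and 938 in the Mir17 cluster, which were named after their values were seen. The last 2 have as their lowest member Mir24-2 and Mir19b-1, whose mature arms are also made from another locus, so their ratios are uncertain. No test was made of these ratios.

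Of the 7 seeds of the 9 arms shown, 2 occurred in an arm of another hairpin among the 1738 mature arms of the RefSeq table. ACACACC, the seed of miR-362-3p, is also that of miR-329-3p, made in the imprinted Dlk1-Dio3 region on chromosome 12. Mir329 had 361 CPM in pup 3, against 403 CPM in pup 1, or 382 ± 29.4 CPM, above Mir362 in both pups. AUCCCUU, the seed of miR-188-5p, is also that of miR-7061-3p, whose hairpin was not analysed here.

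The pups were compared as pup 3 over pup 1 with TMM scaling, which corrects for differences in composition between libraries, and by Fisher's exact test of each gene's counts against the rest of its library, without that scaling. The comparison took in the 286 genes that averaged 50 counts or more. Of these, 1.75% passed an adjusted p of 0.05 (Benjamini-Hochberg) with at least a 2-fold ratio, and 0 of the 5 members did. At any fold 57.3% of all tested genes passed, 33.9% with a ratio above 1, and 2 of the 5 members passed, both with a ratio above 1. The test sets 1 library against another, so a low p does not speak of animals in general.

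Mir188 was higher in pup 3 by 1.15-fold, with a counting interval of 1.10 to 1.21 and an adjusted p of 3.44e-13 in the two-sided Fisher's exact test. Mir500 was higher in pup 3 by 1.14-fold (1.04 to 1.25, adjusted p = 0.000604 in Fisher's exact test). Mir362 had a ratio of 1.15 (0.970 to 1.35, adjusted p = 0.0758 in Fisher's exact test), of the same size as that of Mir188 but from far fewer counts.

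Mir501 and Mir532 had ratios near 1. That of Mir501 was 1.00 (0.935 to 1.08, adjusted p = 0.372 in Fisher's exact test) and that of Mir532 was 0.980 (0.939 to 1.02, adjusted p = 0.610 in Fisher's exact test). The interval of Mir188 did not overlap with that of Mir532, 345 bases away, or with that of Mir501. On the log2 scale the ratios were 0.20 for Mir188, 0.20 for Mir362, 0.19 for Mir500, 0.01 for Mir501 and -0.03 for Mir532, the last of which turned to 0.02 with plain CPM. The median over the members was 0.19, against 0.02 over all tested genes, and the median absolute log2 ratio of all tested genes was 0.15.

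**Figure D5:**
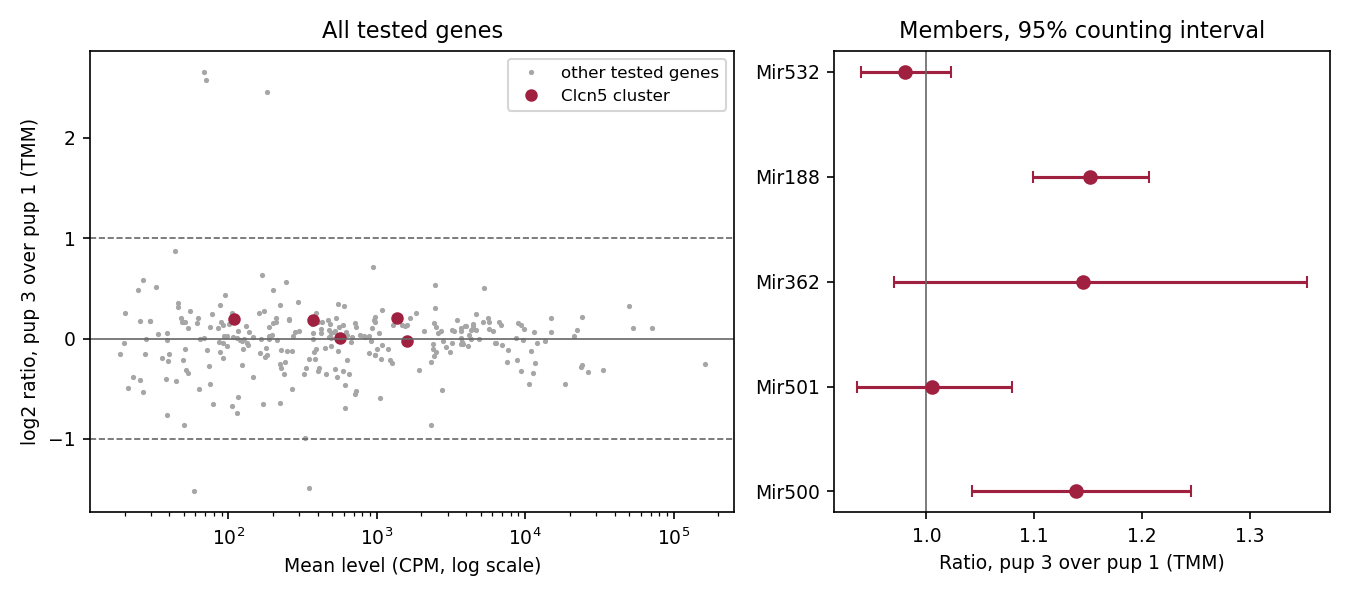
Left, log2 ratio of pup 3 over pup 1 after TMM scaling against mean level (CPM, log axis) for the 286 tested genes, with the members in red and dashed lines at 2-fold. Right, the ratio of each member with its 95% counting interval; Mir188 stands at 1.15 and Mir532 at 0.980, and all members lie far inside the 2-fold lines.

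All 6 neuronal markers listed for the midbrain were detected, with a summed level of 39266 CPM in pup 3, against 33737 CPM in pup 1. They were uneven, with means over the pups from 24297 CPM for Mir137 to 11.6 CPM for Mir124a-1. They also differed in direction between the pups. The log2 ratio of pup 3 over pup 1 was 0.21 for Mir137 and 0.14 for Mir153. It was -0.10 for Mir132, -0.10 for Mir9-3 and -0.02 for Mir212, and Mir124a-1 was not among the genes tested. Endothelial Mir126a had 30095 CPM in pup 3, against 36188 CPM in pup 1. Markers of microglia and leukocytes (3 of 3 detected) summed to 550 CPM in pup 3, against 611 CPM in pup 1, and those of hepatocytes to 47.9 CPM in pup 3, against 58.6 CPM in pup 1. Of the 3 striated muscle markers, 2 were at 0 in both pups. Reads that mapped to several places were counted in no gene, so a low count or 0 does not show that a marker is absent. The pups differed most in epithelial markers (3 of 3 detected), at 549 CPM in pup 3, against 91.6 CPM in pup 1. Red cell markers (3 of 3 detected) summed to 74.2 CPM in pup 3, against 125 CPM in pup 1. They did not move together: the log2 ratio of pup 3 over pup 1 was -1.52 for Mir451a but 0.48 for Mir144. Mir486 was not among the genes tested. The part of these markers in the levels of the cluster was not tested. Sex was not collected, and its part in the levels of these X-linked hairpins was not tested.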

How the data were processed

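MicroRNA libraries from 1 midbrain each of pup 3 and pup 1 were used, 1 group with n = 2. The authors deposited raw read counts for each gene, made from alignments to mm10 with the GENCODE M4 annotation, per the deposited descriptions. No aligner or counter is named in the sources used here. Each file has 3 count columns, for either strand, own strand and opposite strand, and the own-strand column was used. The 4 rows that name no gene held 56.7% of the reads in pup 3 and 57.2% in pup 1 and were left out of library sizes and tests.

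Identifiers were matched without version to GENCODE M21 on GRCm38, and 1894 of 1973 genes, all members among them, had a symbol. The level that a count of 0 still allows (3 counts) is 0.939 CPM for pup 3, against 1.28 CPM for pup 1. Ratios used TMM factors from edgeR 4.0.16 and a prior count of 0.5. Fisher's exact tests (SciPy 1.17.1) were adjusted over all 286 genes tested. They were also run on simulated counts that held counting error only. Such counts cannot show how the test behaves with the spread between animals. Ratio intervals are exact conditional binomial intervals. Clusters are hairpins on 1 strand within 10 kb. Hairpins were folded with ViennaRNA 2.7.2. DESeq2 1.42.0 size factors and the other alternatives are given in the closing section.

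The members and lists were chosen with earlier results of these data known. Genes named are the 5 members, hairpins sharing a seed with them, the 2 nearest in level on either side of Mir532, the highest hairpin of each X-linked cluster and tissue markers; others are marked as named after their values were seen.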

Additional observations from a re-analysis of the deposited data

How the results depend on the processing

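Of the 67 alternative values, 47 stayed close to the main one and 20 moved. Close means within 1 SD over the pups for a level or ratio of levels, within the counting interval for a ratio of pups, and within 1.5 times for a count of genes. With 2 animals, leaving out 1 always moves a mean level by less than that SD. Those levels therefore counted as close by construction and say nothing of robustness. Without the most abundant gene in the total, the cluster sum was 4780 CPM, Mir532 1906, Mir188 1623, Mir501 675, Mir500 445 and Mir362 131 CPM. Scaled to all reads in the file they were 1723, 687, 585, 243, 161 and 47.1. With either-strand counts Mir532 had 1543 CPM and Mir501 547 CPM, since other genes gain counts. Leaving out a pup gave a cluster sum between 3822 and 4184 CPM. The ratio of highest to lowest lay between 13.5 and 15.8 when a pup was left out, and was 11.9 per base of hairpin, where Mir188 is the highest. With a minimum of 1 count 559 genes were detected, and with 50 counts 279, against 359 with 10. The count of genes called different between the pups, 5, became 10 with a mean count of at least 10 and also with no minimum, 19 at 1.5-fold and 164 at any fold. In these settings 0 members were called, except Mir188 and Mir500 at any fold. Among the members' log2 ratios, none of which passed the 2-fold threshold, that of Mir532 alone changed sign, from -0.03 to 0.02 with plain CPM, where the median of all tested genes was 0.07. No paired analysis was possible because the series has 1 group. The depth limits Mir362 most, and 2 animals give no test of the spread.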
